A study of Mus musculus with 2 samples.

Results

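The 9 genes described here were *Tyr*, *Tyrp1*, *Dct*, *Pmel*, *Mlana*, *Oca2*, *Slc45a2*, *Slc24a5* and *Gpr143*, which encode enzymes and other proteins of the melanosome, the organelle that makes and holds melanin. They were taken by symbol from the 32285 genes counted in single cells of the mouse retinal pigment epithelium (RPE), choroid and sclera, and all 9 were found. The Control library came from C57BL/6J mice that received PBS under the retina, and the Dox library from mice of the same strain that received 1 µl of doxorubicin (Dox) at 100 ng/µl. Dox damages DNA and was used by the study to induce senescence of the RPE. Each library pooled 10 eyes of 5 mice aged 3 months, taken 7 days after injection, so there was no replicate of either condition. No test between conditions was therefore made, and every interval given here is a 95% interval for counting error only, and says nothing about the spread between mice.

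Melanin is made in the eye by the RPE, which arises from the neural tube, and by the melanocytes of the choroid, which arise from the neural crest. Tyrosinase (*Tyr*) carries out the rate-limiting oxidation of tyrosine, and *Tyrp1* and *Dct* encode related enzymes that act on later intermediates. *Pmel* forms the fibrils on which melanin is laid down, *Mlana* encodes a membrane protein needed for PMEL processing, *Gpr143* encodes a receptor of the melanosome membrane, and *Oca2*, *Slc45a2* and *Slc24a5* encode transport proteins that affect the ions and pH of the melanosome or its precursors. In mice the RPE makes most of its pigment before and shortly after birth, while mature cells retain it.

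The levels of these genes are counts of unique molecular identifiers (UMIs), each standing for a captured RNA molecule, summed over the cells of a type and given per 1000000 UMIs of those cells (CPM). RPE cells were those with at least 10 UMIs of *Rpe65*, the isomerase of the visual cycle, which gave 1526 Control and 1630 Dox cells with median depths of 16013.5 and 18115.5 UMIs. Melanocytes were cells with at least 5 *Pmel* UMIs, at least 3000 CPM of *Pmel* and fewer than 10 *Rpe65* UMIs, which gave 1537 Control cells (7.62% of cells kept, exact binomial interval 7.25 to 7.99%) and 390 Dox cells (2.53%, 2.29 to 2.79%). Because *Pmel* chose the melanocytes, its level in them is a description and supports nothing. Types that make no melanin were fibroblasts, macrophages, lymphocytes, endothelial cells, smooth muscle cells and Schwann cells, gated on other marker genes, with 14606 Control and 10641 Dox cells in all and median depths of 4583 and 5247 UMIs. Their level is called the background here, since free RNA in droplet data is counted in cells that do not express a gene. Fewer captured melanocytes in the Dox library cannot be told apart from fewer melanocytes in the eye.

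The gates were checked against the markers of each type. In RPE cells the 9 RPE markers summed to 98299.6 CPM (Control) and 99314.1 CPM (Dox), but *Best1*, a chloride channel of the RPE, was nearly absent, at 0.532 and 0.673 CPM. *Rpe65*, at 4966 and 4867 CPM, is among the 9 although it set the gate, so its part in these sums is no check. Most of each sum was *Ttr*, at 69732.5 and 70883.6 CPM. In melanocytes the 7 melanocyte markers, which did not include the 9 genes, summed to 5916 and 6935 CPM, beside 364 and 163 CPM in fibroblasts. Fibroblasts had the lowest sum of the types without melanin. The highest were 1489 CPM in Schwann cells (Control) and 2113 CPM in macrophages (Dox), and RPE cells had 653 and 762 CPM. The 9 RPE markers summed in the same melanocytes to 5961 and 8937 CPM, more than the melanocyte markers, and to 3425 and 5281 CPM in fibroblasts. Most of this was again *Ttr*, at 4018 and 6447 CPM in melanocytes and 2322 and 3716 CPM in fibroblasts. Without *Ttr* the RPE markers summed in melanocytes to less than the melanocyte markers in both libraries. Of the RPE cells, 201 Control and 150 Dox cells also passed the gate of a type without melanin, and 34 and 7 met the limits on *Pmel*. Of the melanocytes, 290 Control and 23 Dox cells also passed such a gate. The libraries held 117731270 and 103997248 UMIs in 20381 and 15649 barcodes, of which 20180 and 15426 were kept, and 441 barcodes were found in both libraries.

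On the mm10 assembly, the annotation places the enzymes at chr7:87424771-87493512 (*Tyr*, minus strand), chr4:80834123-80851719 (*Tyrp1*, plus strand) and chr14:118012790-118052244 (*Dct*, minus strand). The other plus-strand genes lie at chr10:128704195-128720238 (*Pmel*), chr19:29697824-29708634 (*Mlana*), chrX:152781921-152808646 (*Gpr143*), chr7:56239760-56536518 (*Oca2*), chr15:11000721-11029233 (*Slc45a2*) and chr2:125068124-125088677 (*Slc24a5*). All 9 are protein coding. Genes on the opposite strand overlap *Dct* (*4930435M08Rik*), *Pmel* (*Cdk2* and *Dgka*), *Oca2* (*Gm44506*) and *Slc24a5* (*Myef2*), and the use of strand in the counting is not given in the sources used here, so UMIs of these pairs cannot be told apart with certainty.

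Promoter sequences from RefSeq (GRCm38.p6) were found for 5 of the 9 genes. *Pmel*, *Mlana*, *Slc45a2* and *Gpr143* had no entry. The 250 bases before the start of *Tyr*, *Dct* and *Oca2* and 30 bases around the match of *Tyrp1* are shown because they differ in the element through which MITF, the main transcription factor of pigment cells, acts on tyrosinase family genes. Capitals mark 3 motifs, searched on both strands: TCATGTG, which reads CACATGA on the opposite strand, the shorter core CATGTG, with CACATG as its reverse complement, that lies inside it, and GGATTA, with TAATCC as its reverse complement, the core recognised by OTX factors. All sequences run 5′ to 3′ on the strand of the gene.
Tyr, chr7:87493513-87493762, minus strand: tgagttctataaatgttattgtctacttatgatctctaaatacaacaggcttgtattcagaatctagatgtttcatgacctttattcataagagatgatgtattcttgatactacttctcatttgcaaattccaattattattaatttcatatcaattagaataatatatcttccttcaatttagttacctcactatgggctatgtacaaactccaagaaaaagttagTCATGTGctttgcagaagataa
Tyrp1, chr4:80834155-80834184, plus strand: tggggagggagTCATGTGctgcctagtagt
Dct, chr14:118052247-118052496, minus strand: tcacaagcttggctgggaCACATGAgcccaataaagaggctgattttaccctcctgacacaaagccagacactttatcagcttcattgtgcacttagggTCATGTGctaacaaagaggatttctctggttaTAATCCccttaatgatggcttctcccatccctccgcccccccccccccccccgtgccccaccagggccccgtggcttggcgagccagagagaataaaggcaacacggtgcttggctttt
Oca2, chr7:56239509-56239758, plus strand: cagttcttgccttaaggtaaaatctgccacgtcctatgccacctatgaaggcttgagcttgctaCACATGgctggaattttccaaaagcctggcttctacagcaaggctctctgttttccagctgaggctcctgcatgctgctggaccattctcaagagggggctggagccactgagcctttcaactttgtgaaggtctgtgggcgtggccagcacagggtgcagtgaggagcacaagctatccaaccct
Positions are counted from the RefSeq start, which for *Tyrp1* lies downstream of the start given above, so that the stretch shown for *Tyrp1* lies before the RefSeq start but inside the span given for the gene. TCATGTG was present 22 to 16 bases before the start of *Tyr* and 47 to 41 bases before that of *Tyrp1*. *Dct* held it 2 times, at 151 to 145 and, on the opposite strand, at 232 to 226 bases before its start, with 1 OTX core at 119 to 114. *Slc24a5* held it on the opposite strand at 13 to 7 bases, and *Oca2* held only the shorter core, at 186 to 181. Of 27025 genes with a window of this length, 3.72% held TCATGTG, 13.8% the shorter core and 7.21% the OTX core. A match describes the letters in these windows and shows no binding.

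In CPM, all 9 genes were highest in melanocytes in both libraries, which the gate fixed for *Pmel*. In mean UMIs per cell, *Tyr*, *Oca2* and *Gpr143* were higher in the deeper RPE cells than in melanocytes in both libraries. In Control they were at 3.39, 1.77 and 1.62 in RPE cells, beside 2.69, 0.764 and 0.995 in melanocytes. The other genes were higher in melanocytes on that scale too. The genes also differed in how far RPE cells stood from the types without melanin. In Control, *Tyr*, *Oca2*, *Gpr143* and *Slc24a5* were more than 2-fold higher in RPE cells than in the pooled types without melanin. *Dct* was 1.87-fold higher, and *Tyrp1*, *Pmel*, *Mlana* and *Slc45a2* were lower in RPE cells than in the types without melanin. Of these 4, *Pmel* was lower under every alternative run. *Tyrp1* (log2 ratio 0.01), *Mlana* (0.23) and *Slc45a2* (0.02) turned to above 0 when the ratio was centred on all genes, whose median was −0.40 in Control and −0.36 in Dox. *Mlana* (0.07) and *Slc45a2* (0.16) also turned with cells thinned to 1000 UMIs, and *Mlana* (0.09) with *Mlana*-rich cells, in place of *Pmel*-rich cells, taken as melanocytes and left out of the other types. In CPM, 4 of 9 genes passed a 2-fold difference, where 14.9% of 16089 genes did. In Dox, 5 of 9 passed it, *Dct* being added, where 16.2% of 15814 genes did. Levels were not ranked between genes.

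**Figure D1:**
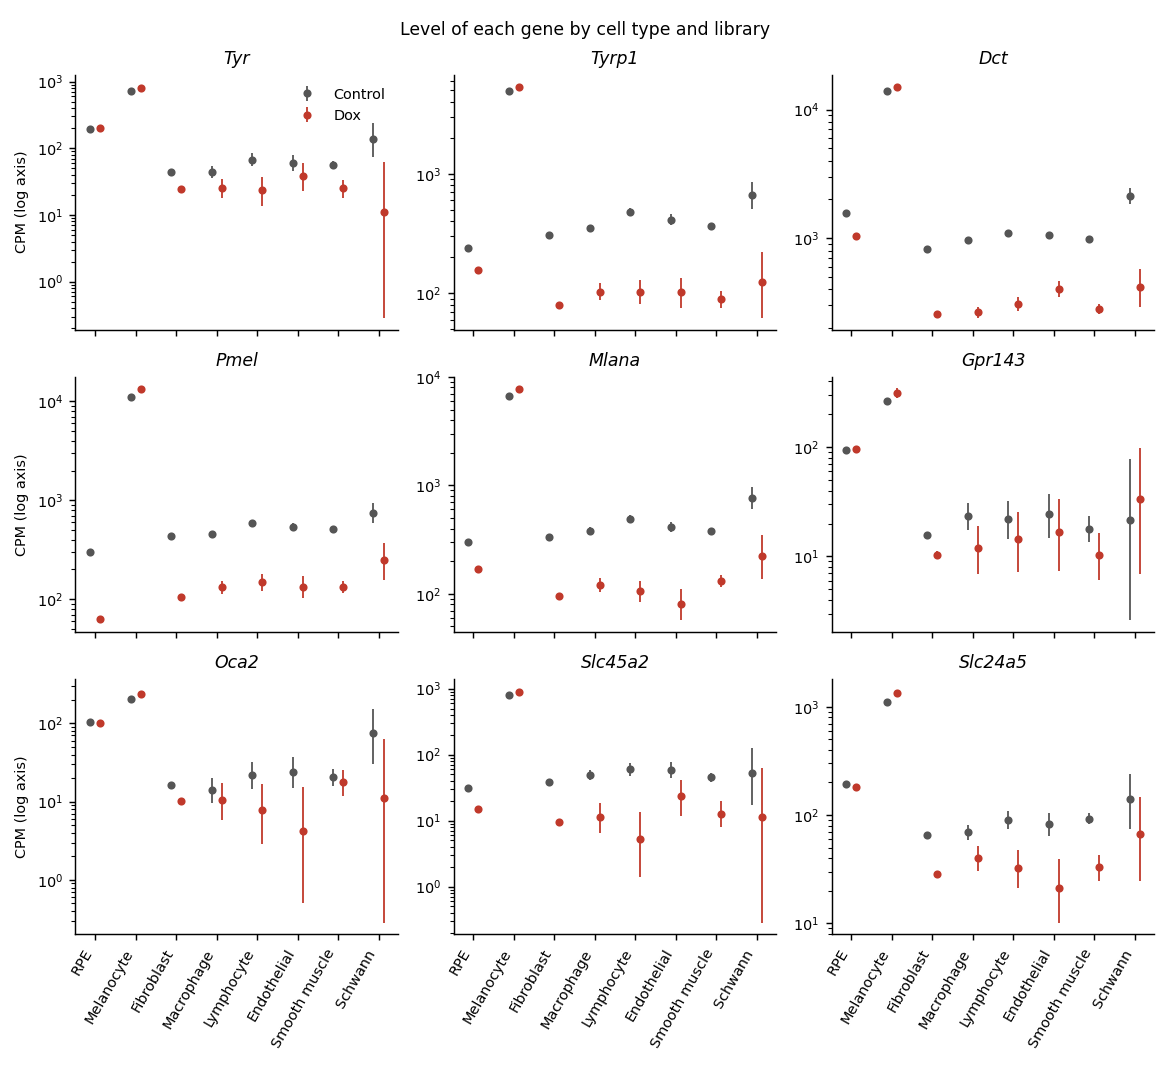
Level of each gene in CPM (log axis) in 8 cell types, Control in grey and Dox in red; bars are exact Poisson 95% intervals of the summed UMIs. Melanocytes are highest in every panel, the Dox points of the types without melanin mostly lie below the Control points, and RPE cells stand clear of those types for *Tyr*, *Oca2* and *Gpr143*, except that for each of them the wide interval of the Schwann cells (38 and 27 cells) reaches the RPE level in a library.

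Among the enzymes, *Tyr* was at 196 CPM (exact Poisson interval 191 to 202) in Control RPE cells and 202 CPM (197 to 207) in Dox RPE cells. Its level in the types without melanin was 45.5 CPM (Control) and 24.7 CPM (Dox), so RPE cells were 4.32-fold and 8.18-fold higher. In melanocytes it was at 720 and 805 CPM, 3.67-fold and 3.98-fold above the RPE. In CPM, *Tyr* was thus between the types without melanin and the melanocytes in both libraries.

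*Tyrp1* was at 241 CPM (235 to 247) in Control RPE cells and 157 CPM (153 to 162) in Dox RPE cells. The types without melanin had 315 CPM (Control) and 81.4 CPM (Dox). On the CPM scale the RPE level was below the background in Control, an order that turned when centred on all genes, and 1.93-fold above it in Dox. Melanocytes had 4906 and 5313 CPM, 20.4-fold and 33.8-fold above the RPE.

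*Dct* was at 1569 CPM (1554 to 1584) in Control RPE cells and 1033 CPM (1022 to 1045) in Dox RPE cells. The types without melanin had 839 and 261 CPM, which left a difference of 730 CPM (Control) and 772 CPM (Dox). Melanocytes had 14052 and 14991 CPM. In CPM, the difference in *Dct* between RPE cells and the types without melanin was thus closer between the libraries than the RPE levels themselves. For *Tyr* and *Tyrp1* this difference lay further apart between the libraries than the RPE levels, so the pattern was not shared by the enzymes. RPE cells were deeper than the types without melanin, and the difference was not computed in UMIs per cell. It therefore cannot decide how much of the *Dct* level in RPE cells was background. In the deepest of 4 bins of RPE cells by depth, *Dct* was still lower in Dox, at 1410 CPM (Control) and 938 CPM (Dox).

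Of the structural proteins, *Pmel* was at 298 CPM (291 to 304) in Control RPE cells and 63.7 CPM (61.0 to 66.6) in Dox RPE cells. The types without melanin, from which cells meeting the *Pmel* limits had been left out, had 440 and 107 CPM. In CPM the RPE level of *Pmel* was therefore below the background in both libraries, by 1.48-fold and 1.68-fold. In mean UMIs per cell it was above the background, by 2.29-fold and 2.03-fold, a smaller excess than that of the median gene. Whether RPE cells express *Pmel* was not tested. *Mlana* was at 303 CPM (296 to 310) and 169 CPM (165 to 174) in RPE cells, beside 340 and 97.4 CPM in the types without melanin. In CPM it was below the background in Control, an order that turned under 3 alternatives, and 1.74-fold above it in Dox.

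*Gpr143*, the receptor gene, was at 93.7 CPM (90.1 to 97.5) in Control RPE cells and 95.5 CPM (92.1 to 99.0) in Dox RPE cells. The types without melanin had 16.2 and 10.4 CPM, so RPE cells were 5.79-fold and 9.16-fold higher. Melanocytes had 266 and 314 CPM, only 2.84-fold and 3.29-fold above the RPE.

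Among the transporters, *Oca2* was at 103 CPM (98.8 to 107) and 101 CPM (97.1 to 104) in RPE cells, 6.10-fold and 9.85-fold above the types without melanin. Its melanocyte level was 204 CPM (193 to 216) in Control and 234 CPM (209 to 261) in Dox, and the RPE was lower by 1.99-fold and 2.33-fold, the smallest gap of the 9 genes in each library. *Slc24a5* was at 193 CPM (187 to 198) and 180 CPM (175 to 184) in RPE cells, 2.86-fold and 6.18-fold above the types without melanin. *Slc45a2* was at 31.0 CPM (28.9 to 33.2) and 14.9 CPM (13.6 to 16.4) in RPE cells, beside 40.2 and 9.62 CPM in the types without melanin and 794 and 880 CPM in melanocytes. The 3 transporters thus divided in the RPE, with *Oca2* and *Slc24a5* above the background in both libraries, while *Slc45a2* was below it in Control in CPM but not after thinning or centring.

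RPE cells were lower than melanocytes in CPM by more than 2-fold for 8 of 9 genes in Control and 9 of 9 in Dox, where 29.9% and 25.1% of all genes were. *Oca2* was the exception in Control, and *Pmel* is among those counted although it set the gate. Since *Pmel* set the melanocyte gate, melanocytes were also chosen by *Mlana* (at least 3 UMIs and 1500 CPM), which gave 2180 Control and 681 Dox cells, of which 1204 and 336 were also chosen by *Pmel*. Against these cells 8 of 9 genes were lower by more than 2-fold in each library, *Oca2* in Dox being at a log2 ratio of −0.79. *Mlana*, which set this gate, is among those counted. The share of all genes was not computed against these cells.

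The background was present in every type without melanin. Leaving aside the Schwann cells (38 and 27 cells), the level of *Tyrp1* ran from 306 to 479 CPM in Control and from 80.1 to 103 CPM in Dox. *Pmel* ran from 432 to 586 CPM and from 104 to 148 CPM, and *Oca2* from 14.2 to 24.2 CPM and from 4.23 to 17.6 CPM. Of these types, Schwann cells had the highest Control CPM for *Tyr*, *Tyrp1*, *Dct*, *Pmel*, *Mlana*, *Oca2* and *Slc24a5*, with *Dct* at 2143 CPM. They also had the lowest median depth of these types in Control (2516.5 UMIs). In mean UMIs per cell, *Pmel* was at 1.84 in them beside 2.25 in fibroblasts, but *Dct* at 5.26 beside 4.26. Fewer than 40 cells stand behind these values.

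The order of RPE and background depended on the scale. RPE cells were more than 3 times as deep as the types without melanin, and per cell all 9 genes had more UMIs in the RPE, by 2.29-fold (*Pmel*) to 20.7-fold (*Oca2*) in Control and 2.03-fold (*Pmel*) to 33.6-fold (*Oca2*) in Dox. An RPE cell held on average 5.13 (Control) or 1.22 (Dox) *Pmel* UMIs, beside 2.24 and 0.600 for a cell of the types without melanin. The median cell of both groups held 2 *Pmel* UMIs in Control and 0 in Dox, and 0 of *Slc45a2* in each library. For the other genes the RPE median was higher. The share of all genes with more UMIs per cell in the RPE was not computed. The factor between CPM and UMIs per cell is the same for every gene. In CPM the median log2 ratio over all genes was −0.40 (Control) and −0.36 (Dox). *Pmel*, at −0.56 and −0.75, lay below it, so its excess per cell was smaller than that of the median gene. *Tyrp1* (−0.39) and *Slc45a2* (−0.38) were close to it in Control. The background per cell also rose with depth. The cells of a type were divided by their depth into 4 bins with equal numbers of cells. Between the shallowest and the deepest bin of fibroblasts, whose median depths differed 3.07-fold in Control and 2.89-fold in Dox, the UMIs per cell of the 9 genes rose 1.53-fold to 1.86-fold and 1.22-fold to 1.51-fold.

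Across the depth bins of the RPE, the genes differed in how far they followed depth. Median depth rose 5.90-fold in Control and 6.83-fold in Dox. UMIs per cell of *Tyr* rose 4.78-fold and 6.06-fold, of *Oca2* 4.76-fold and 5.52-fold, of *Slc24a5* 5.74-fold and 9.11-fold and of *Gpr143* 9.36-fold and 11.1-fold. *Dct* rose 4.15-fold and 5.33-fold. *Slc45a2* rose 1.59-fold and 2.97-fold and *Pmel* 1.15-fold and 1.81-fold, the smallest rises of the 9 genes in each library. *Tyrp1* and *Mlana* rose 1.81-fold and 2.41-fold in Control but 5.73-fold and 6.37-fold in Dox.

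**Figure D2:**
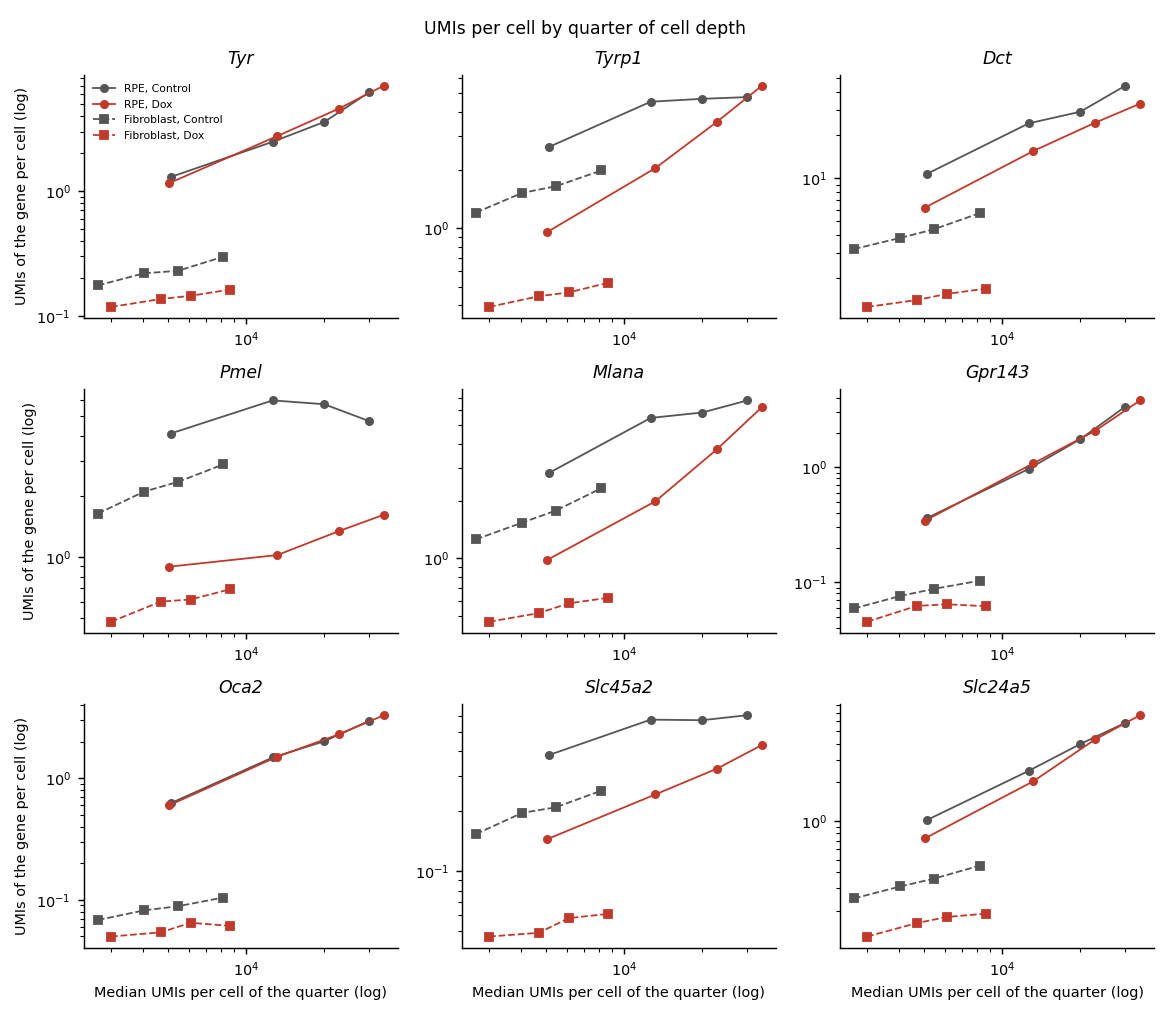
UMIs per cell of each gene (log axis) against the median UMIs per cell of each of 4 bins of cells by depth (log axis), for RPE cells (circles, solid) and fibroblasts (squares, dashed), Control in grey and Dox in red. The Control and Dox lines of the RPE overlie for *Tyr*, *Oca2* and *Gpr143*, run apart for *Pmel*, and meet in the deepest bin for *Tyrp1*.

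The share of cells with a UMI was compared after thinning each cell to 1000 UMIs, which left out 3 Control and 1 Dox RPE cells and 229 and 46 melanocytes. *Tyr* was then found in 16.7% (exact binomial interval 14.9 to 18.7%) of Control and 18.8% (16.9 to 20.8%) of Dox RPE cells, against 4.71% and 2.68% of fibroblasts, which do not make melanin. Without thinning its shares were 86.0% and 84.4% in the RPE and 19.0% and 12.3% in fibroblasts, whose median depths were 4687 and 5333 UMIs. *Pmel* was found after thinning in 22.7% and 7.49% of RPE cells, below the 35.8% and 10.7% of fibroblasts. *Tyrp1* was found in 23.2% of Control RPE cells, below the 27.8% of fibroblasts, and in 14.1% of Dox RPE cells, above the 8.66% of fibroblasts. In melanocytes *Dct* was found in 99.5% and 99.7% of thinned cells, and *Oca2* in 20.03% and 16.9%.

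**Figure D3:**
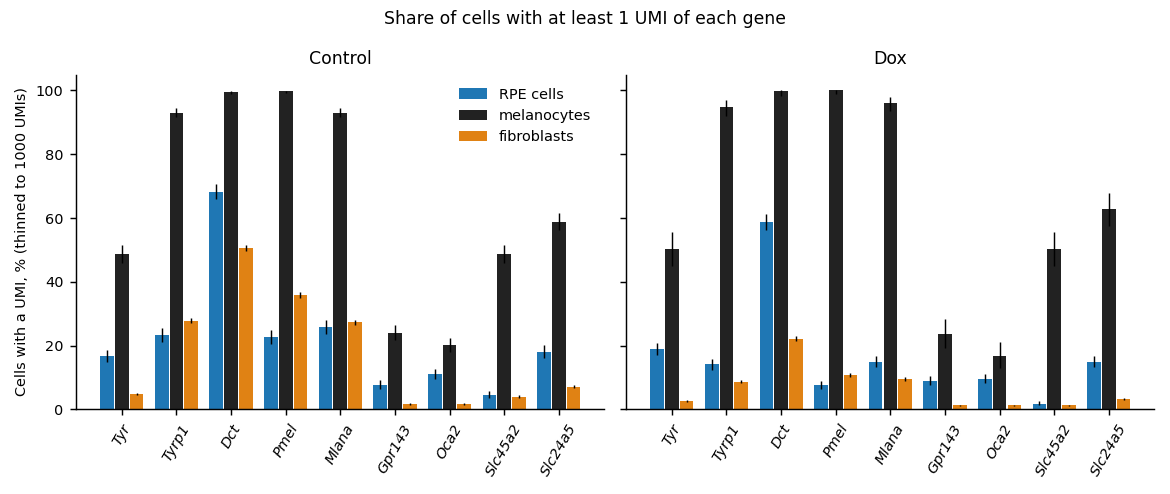
Share of cells (%) with at least 1 UMI of each gene after thinning to 1000 UMIs, for RPE cells, melanocytes and fibroblasts of each library; error bars are exact binomial 95% intervals. In Control the RPE bars exceed those of fibroblasts for *Tyr*, *Dct*, *Gpr143*, *Oca2* and *Slc24a5*, and fall below them for *Tyrp1* and *Pmel*.

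The proportions of the genes also differed between types. They are given per 100 UMIs of *Mlana*, since *Pmel* set the melanocyte gate. In Control, *Tyr* was at 10.9 in melanocytes, 13.4 in the types without melanin and 64.8 in RPE cells, and in Dox at 10.5, 25.4 and 119. *Oca2* was at 3.08, 4.95 and 33.9 in Control and at 3.05, 10.5 and 59.4 in Dox. RPE cells thus had the most *Tyr* and *Oca2* for their *Mlana* in both libraries. *Slc45a2* was at 11.97, 11.8 and 10.2 in Control and at 11.4, 9.88 and 8.82 in Dox. With melanocytes chosen by *Mlana* its melanocyte values were 10.5 and 9.77, below those of the types without melanin. That gate selects on the *Mlana* count by which these values are divided. They therefore cannot decide the order of these types for *Slc45a2*.

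Between conditions, 5 of the 9 genes were lower in Dox RPE cells by more than 1.5-fold and none was higher, where 7.44% of 14215 genes were lower and 2.93% higher by that much. *Pmel* was lower by 4.67-fold (log2 ratio −2.22, exact conditional interval −2.30 to −2.15), *Slc45a2* by 2.07-fold (−1.05, −1.22 to −0.89), *Mlana* by 1.79-fold (−0.84, −0.89 to −0.79), *Tyrp1* by 1.53-fold (−0.62, −0.67 to −0.56) and *Dct* by 1.52-fold (−0.60, −0.62 to −0.58). *Slc24a5* was lower by 1.07-fold (−0.10, −0.15 to −0.04). For *Tyr* (0.04, −0.01 to 0.09), *Oca2* (−0.03, −0.11 to 0.04) and *Gpr143* (0.03, −0.05 to 0.10) the interval covered 0. The 5 genes lower by more than 1.5-fold were those whose Control CPM in the RPE was below, or within 2-fold of, that in the types without melanin. *Slc24a5* was 2.86-fold above those types in Control. Whether the background had a part in this was not tested.

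The same comparison in the types without melanin gave lower Dox values for all 9 genes by more than 1.5-fold, where 5.56% of 16362 genes were lower by that much. The log2 ratios ran from −0.64 for *Gpr143* (−0.78 to −0.49) to −2.06 for *Slc45a2* (−2.19 to −1.93), and *Pmel* was at −2.04 (−2.08 to −2.004). In fibroblasts alone, 9 of 9 were lower, where 5.55% of genes were. Over all kept cells *Pmel* was at 957 CPM (Control) and 291 CPM (Dox), and melanocytes, chosen by *Pmel*, held 58.0% and 62.5% of its UMIs. For the other 8 genes the melanocyte share was lower in Dox, as for *Tyr* (30.3% and 11.1%), *Dct* (40.3% and 25.7%) and *Oca2* (21.4% and 7.27%). Melanocytes were 7.62% of kept cells in Control and 2.53% in Dox, so a lower share is no finding about these genes. The share of all genes for which it was lower was not computed. The number of melanocytes and the background fell together between the libraries. Their part in the lower RPE values was not tested.

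**Figure D4:**
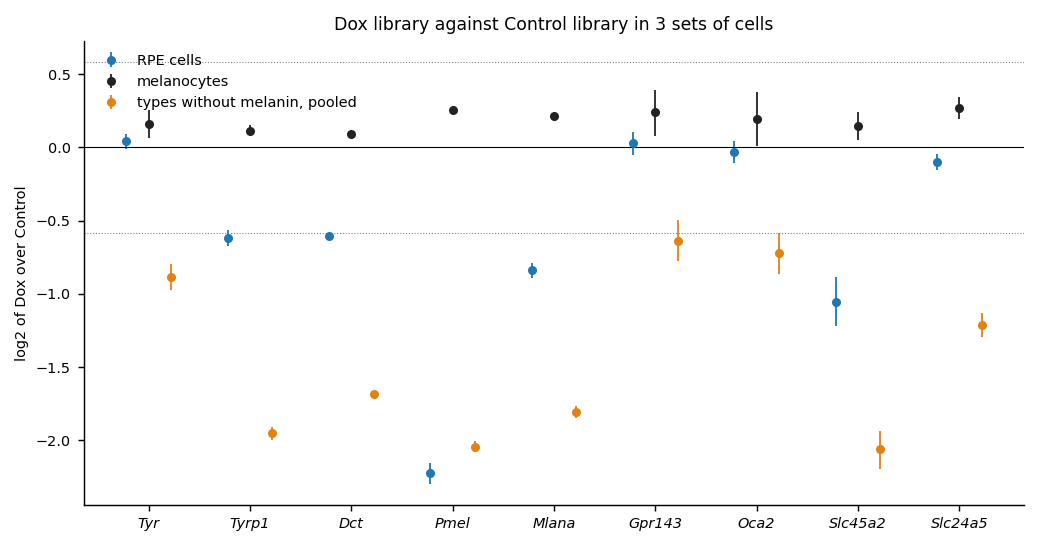
log2 of Dox over Control for each gene in RPE cells (blue), melanocytes (black) and the pooled types without melanin (orange), with exact conditional binomial 95% intervals; dotted lines mark 1.5-fold. *Tyr*, *Gpr143* and *Oca2* lie at 0 in the RPE and below −0.6 in the types without melanin, while the melanocyte values lie just above 0.

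When RPE cells that also passed the gate of a type without melanin or met the *Pmel* limits were left out, 1298 Control and 1473 Dox cells remained, and only *Pmel* (−1.94) and *Slc45a2* (−0.78) were lower by more than 1.5-fold. *Mlana* was then at −0.56, *Dct* at −0.51 and *Tyrp1* at −0.35. The Control level moved more than the Dox level. *Pmel* went to 190 CPM (Control) and 49.5 CPM (Dox), and *Tyrp1* to 199 and 156 CPM. Some of the cells were left out by *Pmel* itself, so its values here are a description. With at least 20 *Rpe65* UMIs the count was 3, *Tyrp1* (−0.47) and *Dct* (−0.51) being lost. The share of all genes lower by that much was not computed for either set of cells.

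Within the deepest bin of RPE cells, the log2 ratio was 0.03 for *Tyrp1* (152 CPM in Control, 155 CPM in Dox), −0.28 for *Mlana* (215 and 177 CPM), −0.66 for *Slc45a2* (19.3 and 12.2 CPM), −0.59 for *Dct* (1410 and 938 CPM) and −1.71 for *Pmel* (150 and 45.9 CPM). In the shallowest bin, *Tyrp1* was at −1.45 (517 and 190 CPM) and *Mlana* at −1.50 (552 and 195 CPM), but *Dct* at −0.77 (2099 and 1234 CPM). The ratio of *Dct* lay between −0.77 and −0.45 in all 4 bins, while *Tyrp1* was lower in Dox in the 3 shallower bins.

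Among the sets of RPE cells compared, the ratio of *Dct* was lowest in those rich in *Serpina3n*, an acute-phase protease inhibitor. The paper reports higher *Serpina3n* after Dox, so a limit on it need not choose cells of the same state in each library. In cells with at least 5 *Serpina3n* UMIs (61 Control and 249 Dox cells), *Dct* was at 2422 CPM (Control) and 984 CPM (Dox) (log2 ratio −1.30, −1.36 to −1.25). *Pmel* was at 334 and 42.9 CPM (−2.96) and *Mlana* at 447 and 297 CPM (−0.59). *Tyr* was at 294 and 244 CPM (−0.27, −0.41 to −0.13), and *Gpr143* at 143 and 114 CPM (−0.32). In the RPE cells that were neither rich in *Serpina3n* nor had at least 5% *Malat1* or 10% mitochondrial UMIs (1265 and 1139 cells), *Dct* was at 1480 and 1039 CPM (−0.51) and *Tyr* at 186 and 183 CPM (−0.02). Between these cells and the *Serpina3n*-rich cells, *Dct* thus differed mainly in Control (1480 and 2422 CPM) and little in Dox (1039 and 984 CPM). In cells with at least 10% mitochondrial UMIs (83 and 96 cells), *Tyrp1* was at −1.73 and *Mlana* at −2.42, and *Oca2* at 0.03 (−0.45 to 0.52).

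The counts were unevenly spread over RPE cells for some of the genes. The 10% of RPE cells with the most *Pmel* UMIs held 61.8% of them in Control and 60.3% in Dox, and for *Slc45a2* the shares were 60.1% and 65.7%. For *Tyr* they were 31.9% and 31.2%, for *Slc24a5* 30.9% and 31.3% and for *Oca2* 32.9% and 31.8%. The median RPE cell had 142 CPM of *Pmel* in Control and 0 in Dox, but 170 and 171 CPM of *Tyr*. Near the *Rpe65* limit, the 92 Control cells with 10 to 12 *Rpe65* UMIs had *Pmel* at 1745 CPM and the 161 cells with 7 to 9 UMIs, just outside it, had 2262 CPM. In Dox these values were 197 and 175 CPM, in 107 and 221 cells.

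In melanocytes none of the 9 genes differed by 1.5-fold between conditions, where 18.5% of 11807 genes did in either direction. That share counts every gene with at least 20 UMIs, and ratios of genes with few UMIs vary more by counting alone. The log2 ratios ran from 0.09 for *Dct* (0.07 to 0.12) to 0.27 for *Slc24a5* (0.19 to 0.35), and all 9 intervals lay above 0. These intervals hold counting error only and narrow as UMIs increase. The share of all genes with an interval above 0 was not computed. *Tyr* was at 0.16 (0.06 to 0.26) and *Pmel*, which chose the cells, at 0.26. The summed fibroblast markers in the melanocytes were 4306 CPM (Control) and 1849 CPM (Dox), and the 4 haemoglobin genes 100.1 and 5.19 CPM. Without the melanocytes that also passed another gate (1247 Control and 367 Dox cells left), *Tyr* (−0.05), *Tyrp1* (−0.07), *Dct* (−0.10) and *Slc45a2* (−0.05) turned below 0 and the other genes lay between 0.00 and 0.07. In the mean of the cells' CPM, *Oca2* (−0.06) and *Tyr* (−0.10) were below 0, as were *Slc45a2* (−0.03) and *Tyrp1* (−0.01), and after thinning to 1000 UMIs *Tyr* (−0.19) and *Oca2* (−0.01). The direction in melanocytes therefore did not hold for these 5 genes, while *Pmel*, *Mlana*, *Slc24a5* and *Gpr143* stayed above 0 in all 10 alternatives.

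The other genes of the melanosome were described in 4 lists with 50 genes: biogenesis (20 genes), transport (7), membrane and redox (14), and receptors and regulators (9). In RPE cells 47 had enough UMIs (at least 20 over both libraries), and 7 were lower in Dox by more than 1.5-fold and 0 higher (7.44% and 2.93% of all genes), with a median log2 ratio of −0.01 beside −0.02 for all genes. *Ednrb*, an endothelin receptor of melanocytes, went from 45.4 to 11.1 CPM (−2.03) and *Mlph*, which links melanosomes to myosin, from 26.2 to 9.29 CPM (−1.50). *Rab38*, a GTPase of melanosome biogenesis, went from 21.7 to 13.7 CPM (−0.66). *Gpnmb*, a glycoprotein related to PMEL, had the highest ratio, from 371 to 536 CPM (0.53, 0.49 to 0.57), followed by *Mfsd12*, a melanosome transport protein, at 6.12 and 7.34 CPM (0.26, −0.03 to 0.56).

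In the types without melanin, 14 of the 50 listed genes were lower in Dox by more than 1.5-fold and 0 higher, where 5.56% and 2.62% of all genes were. *Ednrb* was at 115 and 32.6 CPM (−1.81) in these types and *Mlph* at 56.2 and 17.8 CPM (−1.66), in each library above the RPE level. *Mitf* was at 103 and 97.0 CPM in RPE cells (−0.09) and *Otx2*, a transcription factor of the RPE, at 390 and 446 CPM (0.19). *Sox10*, a neural crest factor, was at 69.7 and 69.0 CPM in RPE cells (−0.01), beside 13.5 and 7.51 CPM in the types without melanin and 254 and 322 CPM in melanocytes. In melanocytes 3 of 48 genes were lower and 0 higher, where 13.8% and 4.64% of all genes were. Among the listed genes with at least 100 UMIs over both libraries, *Myrip* (−0.91, 104 and 13 UMIs) and *Clcn7* (−0.63, 178 and 27 UMIs) had the lowest ratios and *Otx2* (0.44) and *Sox10* (0.34) the highest. The other of the 3 was *Slc7a11* (−1.37), with 22 and 2 UMIs.

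Across the 8 types and 2 libraries (16 points, which share libraries and background), the genes most like each member were listed by Pearson's r of log2(CPM + 1) among 6765 genes. *Tyrp1* was most like *Mlana* (0.99), *Rab38* (0.98) and *Trpm1* (0.98), and *Mlana* most like *Tyrp1* (0.99), *Rab38* (0.98) and *Pmel* (0.98). *Dct* (0.98) and *Slc45a2* (0.98) had *Trpm1* first, followed by *Tyrp1* (0.97 and 0.98) and by *Mlana* (0.96) and *Rab38* (0.96). *Pmel* went with *Stmn3*, *Gjb2* and *Gjb6* (each 0.98). *Pmel* chose the melanocytes, and cells meeting its limits were left out of the types without melanin. Every r of *Pmel* is therefore a description and supports nothing. *Tyr* was most like *S100a1* (0.95), *Vegfb* (0.94) and *Gsta2* (0.93), *Gpr143* most like *Met* (0.98), *Nlk* (0.96) and *Tspan10* (0.95), *Oca2* most like *Chchd10*, *Slc24a5* (each 0.94) and *Tspan10* (0.93), and *Slc24a5* most like *Dct* (0.96), *Trpm1* (0.95) and *Arhgef37* (0.94). Among the members, *Pmel* and *Oca2* were least alike (0.68), which is likewise a description.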

How the data were processed

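The authors dissociated the tissue with papain, made 10x 5′ libraries, aligned reads to mm10 and counted UMIs with Cell Ranger 4.0.0, per the file headers. The deposited counts are whole UMIs per gene and barcode, unnormalized, and 0 columns were left unassigned. Cells kept had over 500 UMIs, 200 to 6000 genes, a log10 genes to log10 UMIs ratio above 0.8 and a mitochondrial share under 0.2. Doublets were not called; RPE cells and melanocytes passing a second gate were kept, with an alternative without them. Gates for the types without melanin asked at least 5 UMIs and 5000 CPM of the type's markers (2000 for lymphocytes, 10000 for smooth muscle) and no second gate. The members, lists and gates were chosen with earlier results of these data known. With 1 library a condition there was no test: intervals were exact Poisson, conditional binomial or Clopper-Pearson (scipy 1.17.1). Only the conditional binomial interval of a ratio was run on simulated data. Those counts were drawn from the Poisson model that it assumes, so they do not check it against uneven counts over cells. Calls needed 20 UMIs over both groups. Named genes were the 9 members, the 3 genes most like each (at least 50 CPM in a type), and the 2 highest and 2 lowest listed genes with at least 100 UMIs in RPE cells and melanocytes. *Mitf*, *Otx2* and *Sox10* in RPE cells, *Slc7a11* in melanocytes, *Rab38*, and *Ednrb* and *Mlph* in the types without melanin were added after their values were seen. Alternatives changed filters, gates, denominator, weighting, depth and centring. Gene positions came from GENCODE.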

Additional observations from a re-analysis of the deposited data

Results flagged for a closer look

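For 6 genes the interval of the Dox over Control ratio lay below 0 in RPE cells and above 0 in melanocytes. The share of all genes that met this rule was not computed. *Pmel*, which chose the melanocytes, is among the 6. The log2 ratios in RPE cells were −2.22 for *Pmel*, −1.05 for *Slc45a2*, −0.84 for *Mlana*, −0.62 for *Tyrp1*, −0.60 for *Dct* and −0.10 for *Slc24a5*. In melanocytes they were 0.26, 0.15, 0.21, 0.12, 0.09 and 0.27 in the same order. The difference between the cell types was not tested, since each condition had 1 library. Without cells passing a second gate, the melanocyte ratios of *Slc45a2* (−0.05), *Tyrp1* (−0.07) and *Dct* (−0.10) were below 0 as well.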

How the results depend on the processing

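The alternatives gave 102 counts of genes, either past a fold or at 100 CPM or more in RPE cells. Of these, 100 stayed within 1.5 times the count under the main settings. The exceptions were the genes lower in Dox RPE cells, 5 as reported, 3 with at least 20 *Rpe65* UMIs and 2 without cells passing a second gate. Both alternatives use fewer cells, and the cause was not tested. *Dct*, lower by 1.52-fold under the main settings, also fell short of 1.5-fold (−0.50) with at least 10 UMIs and 2000 CPM of *Rpe65*. That count stayed within 1.5 times the main one. In RPE cells *Pmel*, *Slc45a2*, *Mlana*, *Tyrp1*, *Dct* and *Slc24a5* were below 0 in all 10 alternatives, *Tyr* and *Gpr143* in none and *Oca2* in 9. *Tyrp1* ranged from −1.20 (cells thinned to 1000 UMIs) to −0.35 (no second gate) and *Pmel* from −2.22 to −1.94. No ratio past its fold changed sign. Ratios within it also turned for *Tyrp1*, *Mlana* and *Slc45a2* of Control RPE cells over the types without melanin and for *Tyr*, *Tyrp1*, *Dct*, *Oca2* and *Slc45a2* in melanocytes. Of 1278 single values under an alternative, 741 stayed inside the reported interval. Doubled limits for the types without melanin, *Pmel*-rich cells kept in them, and shared barcodes left out were chosen after seeing the data. Melanocytes had the lowest median depth of the named types (2226 and 2156.5 UMIs), and few cells (38 and 27) stand behind the Schwann values. No paired analysis was possible because each condition had 1 library and no test was made.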

Other observations

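Cells that passed no gate (1826 Control and 2427 Dox cells, median depths 1311.5 and 901 UMIs) entered no comparison. *Dct* was at 3299 CPM in these Control cells and 2286 CPM in the Dox cells, *Pmel* at 1095 and 505 CPM, *Mlana* at 1115 and 744 CPM and *Tyr* at 219 and 191 CPM. Among them, 437 Control and 291 Dox cells met the *Mlana* limits used as the second choice of melanocytes.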
